A study of Mus musculus with 4 samples.

Results

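The transcripts described here encode the subunits of NF-κB and the proteins that inhibit them, measured in Tc17 cells and cytotoxic T lymphocytes (CTLs). The 10 genes were chosen by name: the subunit genes *Nfkb1*, *Nfkb2*, *Rel*, *Rela* and *Relb*, and the inhibitor genes *Nfkbia*, *Nfkbib*, *Nfkbid*, *Nfkbie* and *Nfkbiz*. Probe sets whose annotation names 1 gene were found for 9 of them, among 19938 genes in all, and *Nfkb1* was not analysed here. Each of the 9 genes had 1 probe set, and all 9 passed the filter on dim genes, among 14953 genes tested. Tc17 cells were wild-type C57BL/6 CD8+ T cells from spleen and lymph nodes, cultured for 2 days with IL-2, IL-6, TGF-β and an antibody against IFN-γ (2 arrays). CTLs were the same kind of cells cultured for 2 days with IL-2 and anti-IFN-γ, without IL-6 and TGF-β (2 arrays). For Tc17 priming the study's methods also state plate-bound anti-CD3 and soluble anti-CD28, and they do not describe the CTL cultures. Thus both groups received IL-2 and the IFN-γ block, and IL-6 and TGF-β came together, so their parts cannot be told apart. The labels call the arrays biological replicates but do not say whether they came from separate animals, so p-values reflect the spread among these samples, which may be technical. The age of the mice is not in the labels, but the study's methods give an age range for all its mice and call them age-matched. In the study the arrays served to define the gene sets of both cell types, and here the comparison asks whether the NF-κB family differs between them.

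NF-κB is a family of dimeric transcription factors that share a Rel homology domain for DNA binding. In resting cells, IκB proteins hold the dimers in the cytoplasm. After T cell receptor and CD28 engagement, the IκB kinase (IKK) marks IκB for degradation, which releases dimers that contain RELA or c-REL. A slower, non-canonical route processes the *Nfkb2* product p100 to p52, which partners RELB. Several family genes, *Nfkbia* first among them, are themselves NF-κB targets, so that the pathway induces its own brake. Much of this control acts on proteins, and the arrays measured transcripts. In bulk cultures, fewer cells of a type and less RNA per cell cannot be told apart.

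Tc17 cells carried less *Nfkb2*, *Rel* and *Nfkbia* transcript than CTLs, whereas the other 6 measured members did not pass the test in either direction. The 3 decreases were 1.88-fold for *Nfkb2*, 1.68-fold for *Nfkbia* and 1.51-fold for *Rel*. Hence 3 of 9 members were called, against 15.7% of all genes tested (limma, adjusted p under 0.05 over all genes tested). The 3 were lower, against 7.44% of all genes, and 0 of 9 were higher, against 8.22%. At an unadjusted p under 0.05 (limma), 4 members were lower and 0 higher, against 1919 lower and 2130 higher of the 14953 genes tested. These counts over all genes are also the background for the unadjusted counts of the pathway lists below. The groups did not overlap for 6 members, against 54.4% of all genes, with 5 members lower (24.8% of all genes) and 1 higher (29.6%). At the stricter thresholds of the study for RNA-seq, an adjusted p under 0.01 with a difference of 0.75 or more on the log2 scale, *Nfkb2* passed, against 6.15% of all genes (limma). The median difference of the 9 members was -0.27 on the log2 scale, against 0.02 over all genes tested. The members were selected knowing earlier results of these arrays, so these counts are a description. When every row of the table was tested in place of the 14953 genes, all 3 calls were lost, with limma adjusted p between 0.0571 and 0.0866.

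**Figure D1:**
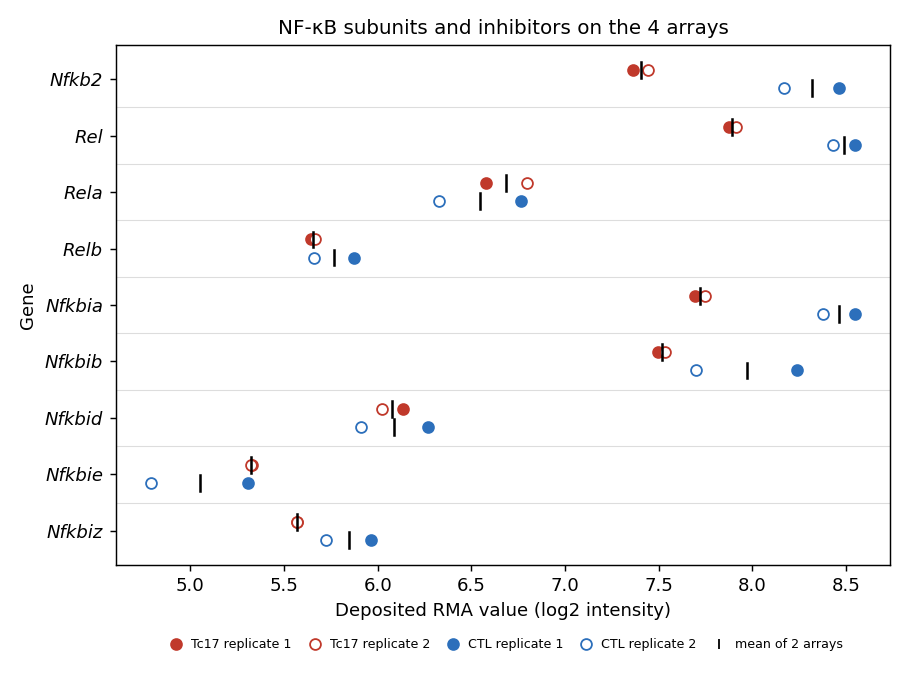
Deposited RMA values, taken as log2 intensities (horizontal axis), of the 9 measured NF-κB members (vertical axis). Circles are single arrays, red for Tc17 and blue for CTL (replicate 1 filled, replicate 2 open), with black ticks at the means of 2 arrays. For *Nfkb2*, *Rel* and *Nfkbia* both Tc17 arrays lay at least 0.52 below both CTL arrays.

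Among the subunits, *Nfkb2*, which encodes p100 and its product p52, gave the largest difference of the 9 members. Its log2 values were 7.36 and 7.45 on the Tc17 arrays, against 8.46 and 8.17 on the CTL arrays. Both Tc17 arrays were thus the low ones, and a gap of 0.72 separated the groups. The difference between Tc17 and CTL was -0.91 ± 0.14 (log2, ± SE, limma adjusted p = 0.00122), with a 95% interval from -1.22 to -0.60. *Rel* encodes c-REL, the subunit that T cells accumulate after activation. It had 7.87 and 7.91 in Tc17 cells, against 8.55 and 8.43 in CTLs. The spread within each group was small beside the gap of 0.52 between them. *Rel* fell by 0.60 ± 0.13 (limma adjusted p = 0.00824), with a 95% interval from -0.88 to -0.32. This call was lost without CTL replicate 1 (-0.54, limma adjusted p = 0.0583).

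*Rela* and *Relb* did not pass the test. *Rela*, whose product p65 carries the strong activation domain of the canonical dimer, had 6.58 and 6.80 in Tc17 cells, against 6.76 and 6.33 in CTLs. The groups overlapped, and the difference of 0.14 had a 95% interval from -0.22 to 0.50 (limma adjusted p = 0.660). Without CTL replicate 2 its sign turned (-0.077), and without CTL replicate 1 it was 0.36. *Relb*, the partner of p52, had 5.64 and 5.67 in Tc17 cells, against 5.88 and 5.66 in CTLs. Here CTL replicate 2 lay between the Tc17 arrays. The *Relb* difference was -0.11, with a 95% interval from -0.40 to 0.18 (limma adjusted p = 0.669). Leaving out CTL replicate 1 brought it to -0.0032, and leaving out CTL replicate 2 to -0.22. These intervals leave room for changes in either direction, so equal levels were not shown. Whether the decrease of *Nfkb2* or *Rel* differs from the difference of *Rela* or *Relb* was not tested.

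Of the 5 inhibitors, *Nfkbia* fell and the other 4 did not pass the test. *Nfkbia* encodes IκBα, the inhibitor that is degraded fastest upon stimulation and resynthesized under NF-κB control. Its log2 values were 7.69 and 7.75 in Tc17 cells, against 8.55 and 8.38 in CTLs. The Tc17 arrays lay close together and 0.63 below the lower CTL array. *Nfkbia* fell by 0.74 ± 0.13 (limma adjusted p = 0.00260), with a 95% interval from -1.03 to -0.46. *Nfkbib*, the gene of IκBβ, had 7.50 and 7.53 in Tc17 cells, against 8.24 and 7.70 in CTLs. The groups did not overlap, but the CTL arrays were 0.54 apart. Its difference of -0.45 ± 0.17 had a limma adjusted p of 0.103. Without CTL replicate 2 the difference was -0.72 and passed (limma adjusted p = 0.0137), and without CTL replicate 1 it was -0.18 (limma adjusted p = 0.573).

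*Nfkbie*, which encodes IκBε, was the member with the largest positive difference. It had 5.33 on each Tc17 array, against 5.31 and 4.79 in CTLs. The higher CTL array was level with the Tc17 arrays to within 0.02, and the difference of 0.28 rested on CTL replicate 2 (95% interval from -0.09 to 0.64, limma adjusted p = 0.336). Leaving out CTL replicate 2 gave 0.02, and leaving out CTL replicate 1 gave 0.54.

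The remaining inhibitor genes, *Nfkbiz* and *Nfkbid*, encode nuclear IκB proteins, which bind NF-κB dimers on chromatin and can raise or lower transcription of selected targets. *Nfkbiz* encodes IκBζ, a protein known in mice for its part in Th17 development. It had 5.57 on both Tc17 arrays, against 5.97 and 5.72 in CTLs. The 2 Tc17 values were equal to every deposited digit, as for 10 of the 14953 genes tested. Although the Tc17 arrays were the low ones, the *Nfkbiz* difference of -0.27 did not pass (95% interval from -0.57 to 0.02, limma adjusted p = 0.223). It was -0.15 when CTL replicate 1 was left out and -0.40 when CTL replicate 2 was. *Nfkbid* encodes IκBNS, which is known in mice to promote *Rel*-dependent programs in T cells. It had 6.13 and 6.02 in Tc17 cells, against 6.27 and 5.91 in CTLs. The Tc17 arrays lay between the CTL arrays. The *Nfkbid* difference was -0.01 (95% interval from -0.34 to 0.31, limma adjusted p = 0.978) and its sign turned with cyclic loess normalization of the arrays (0.01).

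**Figure D2:**
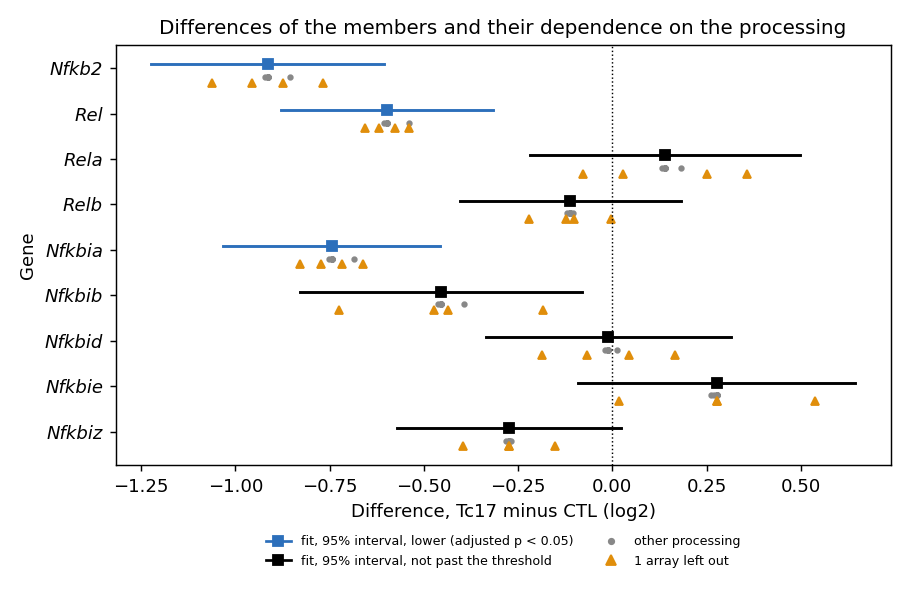
Tc17 minus CTL on the log2 scale (horizontal axis) for the 9 measured members (vertical axis). Squares with lines are the fit and its 95% interval, blue for members lower at a limma adjusted p under 0.05 and black for the others. Grey dots are 8 other ways of processing, and orange triangles are fits without 1 array. *Nfkb2*, *Rel* and *Nfkbia* lay below 0 throughout, while *Rela* and *Nfkbid* had points on both sides of 0.

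The promoters of the 3 members that fell are shown, a choice made with the calls known. These genes are textbook targets of NF-κB, and the part of NF-κB in their decreases was not tested. RefSeq windows from 250 bases before to 50 bases after the start (GRCm38.p6) were matched by symbol for 7 of the 10 genes. *Nfkb1*, *Relb* and *Nfkbiz* had none. Below are the 250 bases before the start, 5′ to 3′ on the strand of the gene, with capitals marking the κB letters GGGNNTTTCC, searched on both strands. The window of *Nfkb2* lies at chr19:46304487-46304736 (plus strand) and is the first of its 3 windows, that of *Rel* at chr11:23770970-23771219 (minus strand) and that of *Nfkbia* at chr12:55492648-55492897 (minus strand).
Nfkb2: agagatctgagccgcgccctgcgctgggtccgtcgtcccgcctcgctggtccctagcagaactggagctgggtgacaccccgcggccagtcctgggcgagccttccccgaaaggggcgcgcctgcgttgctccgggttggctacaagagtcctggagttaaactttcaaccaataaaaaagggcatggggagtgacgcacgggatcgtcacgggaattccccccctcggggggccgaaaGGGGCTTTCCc
Rel: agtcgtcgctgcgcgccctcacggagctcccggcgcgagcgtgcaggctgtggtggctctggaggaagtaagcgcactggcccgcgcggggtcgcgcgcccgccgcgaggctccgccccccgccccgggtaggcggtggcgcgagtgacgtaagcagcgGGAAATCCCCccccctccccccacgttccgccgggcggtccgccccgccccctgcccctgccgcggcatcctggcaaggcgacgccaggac
Nfkbia: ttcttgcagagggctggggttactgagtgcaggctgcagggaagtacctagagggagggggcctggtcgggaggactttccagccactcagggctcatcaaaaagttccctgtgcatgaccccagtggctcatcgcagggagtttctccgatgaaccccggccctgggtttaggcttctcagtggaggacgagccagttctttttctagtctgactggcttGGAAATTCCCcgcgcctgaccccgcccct
The match in *Nfkb2* read GGGGCTTTCC and ended 2 bases before the start used for that window. This start lies inside the annotated *Nfkb2* gene (chr19:46300994-46312400), and none of the *Nfkb2* windows covers the first base of the gene. In *Rel* and *Nfkbia* the letters stood on the opposite strand, as GGGGATTTCC from 91 to 82 bases and GGGAATTTCC from 29 to 20 bases before the start.

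The letters GGGNNTTTCC occurred in 1.63% of 32851 such windows, counting the whole 300 bases, and in at least 1 window of 1.90% of 27025 genes. The *Rel* and *Nfkbia* windows held 1 match each, as did each *Nfkb2* window, but the other 2 *Nfkb2* windows, which are not printed, overlap and share the same site. No match was found in the windows of *Rela*, *Nfkbib*, *Nfkbid* and *Nfkbie*, and *Nfkb1*, *Relb* and *Nfkbiz* had no window to search. With the looser decamer known as the κB consensus, found in 4.51% of windows and for 5.14% of genes, *Nfkbid* and *Nfkbie* also held matches, so that 5 of 7 members had one. This overlaps with the first motif, since each match of the first motif in these genes also met the consensus. A match describes these letters and not binding, and the motifs were searched with the calls already known.

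The CTL arrays differed from each other in the same direction for every measured member. CTL replicate 1 was above CTL replicate 2 in 9 of 9 members, against 54.0% of all genes tested. The gap ranged from 0.12 for *Rel* to 0.54 for *Nfkbib*, with a median of 0.29 over the members, while the median size over all genes was 0.14. For *Nfkbib*, *Nfkbie* and *Rela* the gap exceeded that of 97.7%, 97.3% and 94.4% of the genes tested. Tc17 arrays lay closer, with gaps of 0 to 0.22, and Tc17 replicate 1 was the higher in 2 of 9 members. For *Rela*, *Relb*, *Nfkbid*, *Nfkbie* and *Nfkbib* the CTL gap was larger than the difference between the group means. The part of this gap in the results was not tested beyond leaving out each array.

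Among genes from the antigen receptor to IKK and those for IKK and related kinases, 3 rose in Tc17 cells and none passed as lower. From the antigen receptor to IKK, 2 of 8 tested genes rose and none fell (limma, with 3 higher and 0 lower at an unadjusted p under 0.05), against 8.22% higher among all genes, and the median of the list was 0.16. *Prkcq*, the gene of PKCθ, a kinase that links the T cell receptor to IKK, had 8.03 and 8.22 in Tc17 cells, against 7.41 and 7.27 in CTLs (0.78 ± 0.13, limma adjusted p = 0.00236). Both Tc17 arrays were above both CTL arrays. Of 5 tested genes for IKK and related kinases, *Map3k14* rose, against 8.22% of all genes, and none fell, against 7.44%. At an unadjusted p under 0.05 (limma), 1 was higher and 0 lower. *Map3k14* encodes NIK, the kinase that starts p100 processing. It had 5.22 and 5.08 in Tc17 cells, against 4.47 and 4.83 in CTLs (0.50 ± 0.15, limma adjusted p = 0.0434). This call was lost in 8 of 12 refits, among them the fits without CTL replicate 1 (0.32), Tc17 replicate 1 (0.43) or Tc17 replicate 2 (0.57).

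Receptors upstream of NF-κB went both ways, with 4 of 11 tested genes higher, against 8.22% of all genes, and 2 lower, against 7.44%. *Cd27*, a costimulatory TNF receptor, had 7.70 and 7.72 in Tc17 cells, against 6.53 and 6.51 in CTLs (1.18 ± 0.12, limma adjusted p = 9.29e-05). *Tnfrsf1b*, the gene of TNF receptor 2, had 7.60 and 7.67 in Tc17 cells, against 6.64 and 6.55 in CTLs (1.04 ± 0.13, limma adjusted p = 2.63e-04). The other genes that rose, *Il18r1* and *Tnfrsf1a*, were named after their values were seen. In CTLs *Il18r1* was dim (3.48 and 3.47), near the lowest array median of 3.18, so the size of its rise is not exact. The call of *Il18r1* was lost without Tc17 replicate 1 (0.52), and that of *Tnfrsf1a* without Tc17 replicate 2 (0.50), CTL replicate 1 (0.52) or CTL replicate 2 (0.54). *Tnfrsf4*, which encodes OX40, had 8.69 and 8.65 in Tc17 cells, against 10.11 and 9.84 in CTLs (fell by 1.30 ± 0.14, limma adjusted p = 9.35e-05). Both encode costimulatory TNF receptors of activated T cells. *Tnfrsf18*, which encodes GITR, had 8.77 and 8.74 in Tc17 cells, against 9.64 and 9.62 in CTLs (fell by 0.88 ± 0.12, limma adjusted p = 7.39e-04). For these 4 genes with values the groups did not overlap, as for 54.4% of all genes. Over the 11 tested receptor and adaptor genes, 5 were higher and 3 lower without overlap. Of 8 tested genes for cIAP, TRAF, TRADD and linear ubiquitin proteins, *Birc2* and *Tradd* rose, against 8.22% of all genes, and none fell (limma, with 2 higher and 0 lower at an unadjusted p under 0.05). *Birc2*, which encodes cIAP1, a ubiquitin ligase that keeps NIK low, had 6.14 and 6.22 in Tc17 cells, against 5.24 and 5.18 in CTLs (0.96 ± 0.13, limma adjusted p = 4.38e-04). *Tradd*, the gene of a TNF receptor adaptor, rose by 0.44 ± 0.13 (limma adjusted p = 0.0372), a call lost without any 1 of the 4 arrays (from 0.39 to 0.49).

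Of the brakes and ubiquitin editors, 4 of 8 tested genes were higher in Tc17 cells, against 8.22% of all genes, and 1 was lower, against 7.44%, with a list median of 0.47 against 0.02 over all genes. *Bcl3* had the largest increase among the tested genes of the 6 pathway lists. It encodes a nuclear IκB protein that binds p50 and p52 homodimers. Such proteins can raise or lower transcription, so its place in this list does not make *Bcl3* a brake only. It had 7.55 and 7.51 in Tc17 cells, against 5.85 and 5.95 in CTLs. The arrays of a group were at most 0.09 apart, and the 3.09-fold rise was 1.63 ± 0.13 on the log2 scale (limma adjusted p = 1.16e-05), kept in all 12 refits with other processing or without 1 array. Hence the nuclear IκB genes gave unlike values, 1.63 for *Bcl3*, -0.27 for *Nfkbiz* and -0.01 for *Nfkbid*, and whether these differ was not tested. *Tnip2*, the gene of an A20-binding inhibitor, had 5.35 and 5.33 in Tc17 cells, against 4.97 and 4.44 in CTLs (0.64 ± 0.17, limma adjusted p = 0.0242). *Tnfaip3* and *Cyld* encode the deubiquitinases A20 and CYLD, which switch off IKK signaling, and were named after their values were seen. *Tnfaip3* had 7.40 and 7.64 in Tc17 cells, against 7.06 and 6.77 in CTLs (0.61 ± 0.15, limma adjusted p = 0.0173). A20 is a textbook NF-κB target like IκBα, and its transcript had the opposite sign to *Nfkbia*. The part of NF-κB in either difference was not tested. *Cyld* rose by 0.58 ± 0.13 (limma adjusted p = 0.0101).

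*Otulin*, which encodes a deubiquitinase that removes linear ubiquitin chains, was the brake that fell. It had 6.67 and 6.38 in Tc17 cells, against 7.41 and 7.31 in CTLs (fell by 0.83 ± 0.14, limma adjusted p = 0.00214). The calls of *Tnfaip3*, *Tnip2* and *Cyld* were lost without CTL replicate 2 (0.46, 0.38 and 0.51) and without Tc17 replicate 2 (0.49, 0.65 and 0.56), and that of *Tnip2* also without Tc17 replicate 1 (0.63). In either of the fits without CTL replicate 2 or Tc17 replicate 2, 1 brake gene was called higher.

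**Figure D3:**
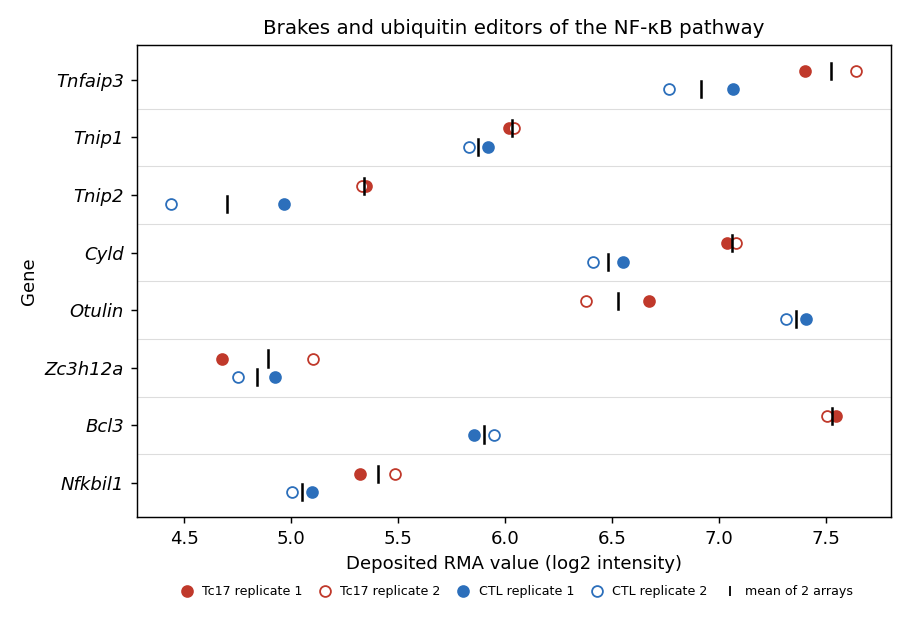
Deposited RMA values, taken as log2 intensities (horizontal axis), of the 8 tested brakes and ubiquitin editors (vertical axis). Circles are single arrays, red for Tc17 and blue for CTL (replicate 1 filled, replicate 2 open), with black ticks at the means of 2 arrays. *Bcl3* had 7.55 and 7.51 in Tc17 cells, against 5.85 and 5.95 in CTLs, while *Otulin* was lower in Tc17 cells.

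The genes listed as known NF-κB targets outside the family were mostly lower in Tc17 cells. This list leaves out targets that were listed by another role, such as *Tnfaip3*, which rose. Of 19 tested targets 12 fell, against 7.44% of all genes, and 1 rose, with a list median of -0.88. *Csf2*, the gene of GM-CSF, had 2.93 and 3.47 in Tc17 cells, against 7.06 and 6.39 in CTLs (fell by 3.52 ± 0.22, limma adjusted p = 2.16e-06). *Ccl5*, a chemokine gene, had 4.55 and 4.79 in Tc17 cells, against 8.09 and 7.67 in CTLs (fell by 3.21 ± 0.16, limma adjusted p = 3.97e-07). The *Csf2* values of Tc17 cells lay near the array medians, the lowest of which was 3.18, where background compresses differences, so the size of its fall is not exact. The target that rose was *Ccl4*, a further chemokine gene, with 8.28 and 8.58 in Tc17 cells, against 7.66 and 7.43 in CTLs (0.88 ± 0.15, limma adjusted p = 0.00212). The others that fell, named after their values were seen, were *Lta*, *Cd83*, *Cxcl10*, *Gadd45b*, *Bcl2l1*, *Il2*, *Cd69*, *Myc*, *Tnf* and *Sod2*. Of these, *Il2* (3.28 and 3.38) and *Cxcl10* (3.53 and 3.64) were also near the array medians in Tc17 cells, so the same limit holds for them. The call of *Sod2* was lost without Tc17 replicate 2 (-0.39), CTL replicate 1 (-0.62) or CTL replicate 2 (-0.50), and that of *Il2* without CTL replicate 1 (-0.47), Tc17 replicate 1 (-1.04) or Tc17 replicate 2 (-1.15). Without CTL replicate 2 the difference of *Il2* was -1.72. These genes answer to many other factors besides NF-κB, and the part of NF-κB in their differences was not tested.

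**Figure D4:**
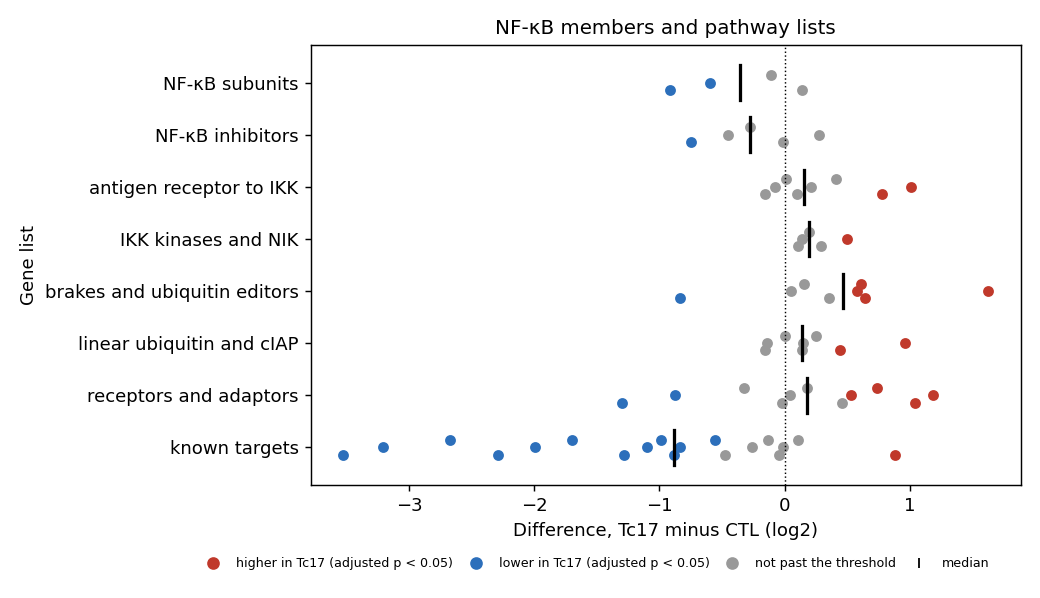
Tc17 minus CTL on the log2 scale (horizontal axis) for the measured NF-κB family genes and the tested genes of 6 pathway lists (vertical axis). Each point is a gene, red where it rose and blue where it fell in Tc17 cells (limma adjusted p under 0.05) and grey otherwise, with a black bar at the median of a list. The median was 0.47 for the brakes and -0.88 for the known targets.

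The culture labels matched their marker genes. *Il17f* had 9.22 and 8.70 on the Tc17 arrays, against 2.94 and 3.35 on the CTL arrays, and *Ifng* was 5.91 and 6.24 in Tc17 cells, against 10.57 and 10.08 in CTLs. Of 8 CD8 T cell markers, 7 had a probe set, with values from 8.57 to 10.66 in Tc17 cells and from 7.93 to 9.83 in CTLs. Of these, 4 rose (limma), against 8.22% of all genes, and 1 fell, against 7.44%. Those that rose were *Cd8a* (0.67), *Cd3d* (0.73), *Cd3e* (0.86) and *Cd3g* (1.00), and *Cd2* fell (-0.46). *Cd4* lay at 3.28 and 2.83 in Tc17 cells, against 3.21 and 2.92 in CTLs, near the lowest array median of 3.18. The 8 myeloid and dendritic cell markers lay between 2.26 and 3.09 in Tc17 cells and between 2.31 and 3.03 in CTLs, and none of those bright enough to be tested passed (limma, 0 at an unadjusted p under 0.05). Of 6 B cell markers 5 had a probe set, and all of these but *Cd79b* were at most 3.25 on any array. *Cd79b* had 5.14 and 5.02 in Tc17 cells, against 4.78 and 4.53 in CTLs (limma adjusted p = 0.0619). Of 3 NK cell markers, *Ncr1* and *Klrb1c* were at most 2.59, while *Eomes*, which CTLs also express, fell in Tc17 cells. For red blood cells, 1 of 4 markers had a probe set and lay at 2.80 to 2.85 in Tc17 cells and at 2.65 in CTLs.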

How the data were processed

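Transcript levels of 2 Tc17 and 2 CTL cultures were measured on whole-transcript arrays, 1 per sample. The deposited table holds log2 values from RMA, by which the authors corrected background, normalized arrays by quantiles and summarized probe sets. The sources used here give neither the version of RMA nor the log base, and the range from 1.18 to 13.70 is that of log2 intensities. Quantile normalization hides a shift of all transcripts, and background compresses differences of dim genes. The number of arrays limits the precision.

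For each gene the probe set with the highest mean was used, among 21789 of 35557 rows annotated with 1 symbol. Genes with a mean under the 25th percentile (2.59) were left out. The comparison of Tc17 with CTL used limma 3.58.1 (R 4.3.3), unpaired and two-sided, with Benjamini-Hochberg adjustment over 14953 genes and a threshold of 0.05. For each gene, limma combined its own variance (2 residual degrees of freedom) with a prior from all genes tested (8.98 degrees of freedom). The p-values thus rest in large part on the spread of other genes. An exact permutation test of 2 against 2 cannot give a p under 0.333. The fit was tested on simulated data. Python 3.11.15 with pandas 2.3.3 and matplotlib 3.10.9 served for motifs and plots.

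The members and lists were chosen with earlier results of these data known. All members were named, and from each of 6 pathway lists the 2 largest increases and the 2 largest decreases past the threshold. A gene that this rule names is not reported here. Of 65 list genes, 59 were measured by a probe set naming that gene alone. Same-numbered arrays deviated from their group means with a correlation of 0.02 across genes, and the test was unpaired. This value showed no shared shift by number but cannot tell whether same-numbered cultures were prepared together. The alternatives were other filters, robust moderation with an intensity trend, median centring or cyclic loess, averaged probe sets, every row, the replicate number as a block, the thresholds of the study's RNA-seq and each array left out.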

Additional observations from a re-analysis of the deposited data

How the results depend on the processing

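Among the 9 members, the decreases of *Nfkb2* and *Nfkbia* passed in 11 of the 12 refits at the same threshold and that of *Rel* in 10. With every row of the table tested (35557 rows, those without a symbol included), 684 rows passed in place of 2342 genes, 0 members in place of 3 (limma, with 3 lower and 0 higher at an unadjusted p under 0.05) and 15 pathway list genes in place of 29. The log2 differences were then as before, -0.91 for *Nfkb2*, -0.60 for *Rel* and -0.74 for *Nfkbia*, with limma adjusted p of 0.0571, 0.0866 and 0.0610. With the stricter thresholds of 0.01 for the adjusted p and 0.75 for the log2 difference, 919 genes and 1 member, *Nfkb2*, passed. *Nfkbid* was 0.013 with cyclic loess, against -0.01.

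With each array left out in turn, 1421 to 1924 genes passed, the lowest without Tc17 replicate 2 and 1538 without CTL replicate 1. Between 2 and 4 members were lower, and 21 to 25 list genes passed. The members ranged from -1.06 to -0.77 (*Nfkb2*), from -0.66 to -0.54 (*Rel*), from -0.08 to 0.36 (*Rela*), from -0.72 to -0.18 (*Nfkbib*) and from -0.19 to 0.17 (*Nfkbid*). *Rela* turned without CTL replicate 2 (-0.077), and *Nfkbid* without CTL replicate 1 (0.17) and without Tc17 replicate 2 (0.05). The cause was not tested. In these fits 1 group has a single array, whose spread is taken to equal that of the other group.

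The replicate number shares no known source between groups. With it as a replicate block, 2322 genes, 3 members and 28 list genes passed. The call of *Map3k14* was lost (limma adjusted p = 0.0539). Small differences of dim genes are limited by background.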
